A study of Homo sapiens with 38 samples.

Results

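The sterol and fatty acid synthesis genes are 36 genes that make cholesterol and fatty acids, sense sterols or move sterols out of cells. They were chosen by symbol from genes that the sterol-regulated transcription factors called SREBPs drive, or that regulate SREBPs. The efflux genes ABCA1, ABCG1 and MYLIP were added. The choosing rule itself used symbols and no measured values, but it was set with earlier results of these data known. All 36 of the 36 symbols were listed among the 12627 genes of the deposited table. The study silenced VPS4A, VPS4B or both by siRNA in HCT116, a human colorectal carcinoma cell line, and asked what each loss does to gene expression. RNA was collected 72 h after transfection and read with an amplicon panel, which counts 1 amplified stretch per transcript. The table held 38 libraries, of which 37 were used, in 9 conditions, and each replicate number carried a batch label of its own.

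NT cells (4 libraries) received no siRNA, siCTRL#1 cells (5) received 60 nM of a non-targeting duplex, and siCTRL#2 cells (4) received another non-targeting duplex whose dose the labels do not give. Single silencing used 30 nM of siVPS4A#1 (5 libraries deposited, 4 used), siVPS4A#2 (4), siVPS4B#1 (4) or siVPS4B#2 (4), each mixed with 30 nM of siCTRL#1. Combined silencing used 30 nM of each of a pair of duplexes and no siCTRL#1, siVPS4A#2 with siVPS4B#1 in siVPS4A+B#1 (4) and siVPS4A#1 with siVPS4B#2 in siVPS4A+B#2 (4). The used libraries held 5090666 to 11035293 reads, with a median of 7561496. Levels are given as reads per 1000000 after TMM scaling, and at these depths 3 reads, the floor used here, come to at most 0.589 reads per 1000000. Intervals and floors cover counting error only. The study describes 4 independent experiments for these RNA counts, while siCTRL#1 and siVPS4A#1 have 5 libraries each.

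VPS4A and VPS4B encode 2 closely related enzymes that use ATP to pull ESCRT-III subunits out of their polymers, so that the subunits can be used again. VPS4A averaged 190.0 ± 14 (SD, n = 5) with siCTRL#1, and was left at 1.15% of that mean with siVPS4A#1, 4.15% with siVPS4A#2, 10.5% with siVPS4A+B#1 and 2.65% with siVPS4A+B#2. VPS4B averaged 20.7 ± 3.54 (SD, n = 5) with siCTRL#1, and was left at 2.09% with siVPS4B#1, 5.19% with siVPS4B#2, 2.60% with siVPS4A+B#1 and 6.21% with siVPS4A+B#2. VPS4B counts in these silenced libraries were low, 1 to 7 reads with siVPS4B#1 and 6 to 16 with siVPS4B#2, 2 to 7 with siVPS4A+B#1 and 7 to 9 with siVPS4A+B#2. The gene not targeted stayed in the range of controls or near it. VPS4A read 188 to 229.8 with siVPS4B#1 and 172 to 241 with siVPS4B#2, against 173 to 207 with siCTRL#1, 201 to 325 in NT and 219 to 251 with siCTRL#2. VPS4B read 21.4 to 32.1 with siVPS4A#1 and 14.3 to 22.5 with siVPS4A#2, against 16.4 to 24.6 with siCTRL#1, 16.3 to 29.0 in NT and 19.7 to 38.8 with siCTRL#2.

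The library that was not used is labelled siVPS4A#1 replicate 2 and held 669257 reads. Its VPS4A level was 11.3 (7 reads), and its VPS4B level was 1.62 (1 read, exact 95% counting interval 0.0410 to 9.02), both scaled with this library included, whereas the other siVPS4A#1 libraries held VPS4B at 21.4 to 32.1. Its VPS4B level went against its label, and results that move when it is kept are given both ways. In it, 23 of the 36 members stood above every NT and siCTRL#1 library, as did 24.3% of all genes, and the counting intervals of 18 members and 8.04% of all genes lay above those libraries.

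Cells make cholesterol from acetyl-CoA through the mevalonate pathway, then through squalene and lanosterol, and make fatty acids from the same precursor. When sterols in the endoplasmic reticulum run low, SCAP carries SREBP precursors to the Golgi, where proteases release the active factor, and the INSIG proteins hold SCAP back when sterols are plentiful. Cholesterol taken up from outside reaches the endoplasmic reticulum by way of endosomes, and oxysterols made in sterol-rich cells activate LXR, which turns on efflux genes such as ABCA1 and ABCG1.

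With both VPS4 genes silenced, many enzymes of cholesterol synthesis rose. In siVPS4A+B#1 against siCTRL#1, 17 of the 36 members rose and 3 fell at an adjusted p under 0.05 and a fold of at least 1.5, where 10.6% of all genes rose and 11.5% fell. In siVPS4A+B#2 against siCTRL#1, 19 rose and 2 fell, where 12.8% of all genes rose and 15.9% fell. The median log2 fold change of the members was 0.48 and 0.68, and that of all listed genes was -0.02 in both. These tests are limma fits over all genes with Benjamini-Hochberg adjustment, and fold changes are on the scale of log2(reads per 1000000 + 1), which understates changes of genes near the floor. Both comparisons use the same siCTRL#1 libraries. With scaling by library totals in place of TMM, the median of all genes lay at -0.16 and -0.13, a shift of -0.14 and -0.11, and the members split into 11 higher and 3 lower in siVPS4A+B#1 and 16 higher and 2 lower in siVPS4A+B#2. Shares of all genes beside counts of calls, here and below, are those of the limma tests under TMM scaling at both limits. No share is given for counts under another scaling, another fit or an unadjusted p, so those counts have no background beside them.

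Within replicate numbers the pattern was the same in direction for many members. The difference from siCTRL#1 was above 0 in all 4 replicate numbers for 19 members with siVPS4A+B#1 and for 24 with siVPS4A+B#2, and below 0 in all 4 for 2 and 3 members. Of all genes, 21.5% were above 0 and 22.2% below 0 in all 4 with siVPS4A+B#1, and 23.9% and 25.1% with siVPS4A+B#2. One-signed differences were also seen under single silencing, with 17 members above 0 and 2 below 0 in all 4 for siVPS4B#1 (20.9% and 20.3% of all genes), close to the counts of siVPS4A+B#1. These were 8 and 5 for siVPS4B#2 (15.4% and 16.1%), 4 and 14 for siVPS4A#1 (23.6% and 24.1%) and 1 and 3 for siVPS4A#2 (6.99% and 6.9%). For siCTRL#2 they were 8 and 11 (20.1% and 21.2%). By role, 6 of the 7 mevalonate pathway genes rose and 1 fell with siVPS4A+B#1 (median 1.03), and 5 rose and 1 fell with siVPS4A+B#2 (median 1.37). Of the 11 genes from squalene to sterol, 7 rose and 1 fell with either pair (medians 0.69 and 1.02). Of the 9 fatty acid synthesis genes, 2 rose with siVPS4A+B#1 and 5 with siVPS4A+B#2 (medians 0.29 and 0.69). Counts by role are to be read beside the shares of all genes called in the same comparisons, given in the paragraph before. Called with both pairs against siCTRL#1 were 16 members higher and 2 lower, PMVK and TM7SF2 (6.19% and 7.06% of all genes). Only INSIG1 rose among the 5 genes of the SREBP machinery, with either pair (medians 0.31 and 0.13). The 3 efflux genes had medians of -0.35 and -0.38, and only ABCA1 with siVPS4A+B#1 passed the test among them.

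**Figure D1:**
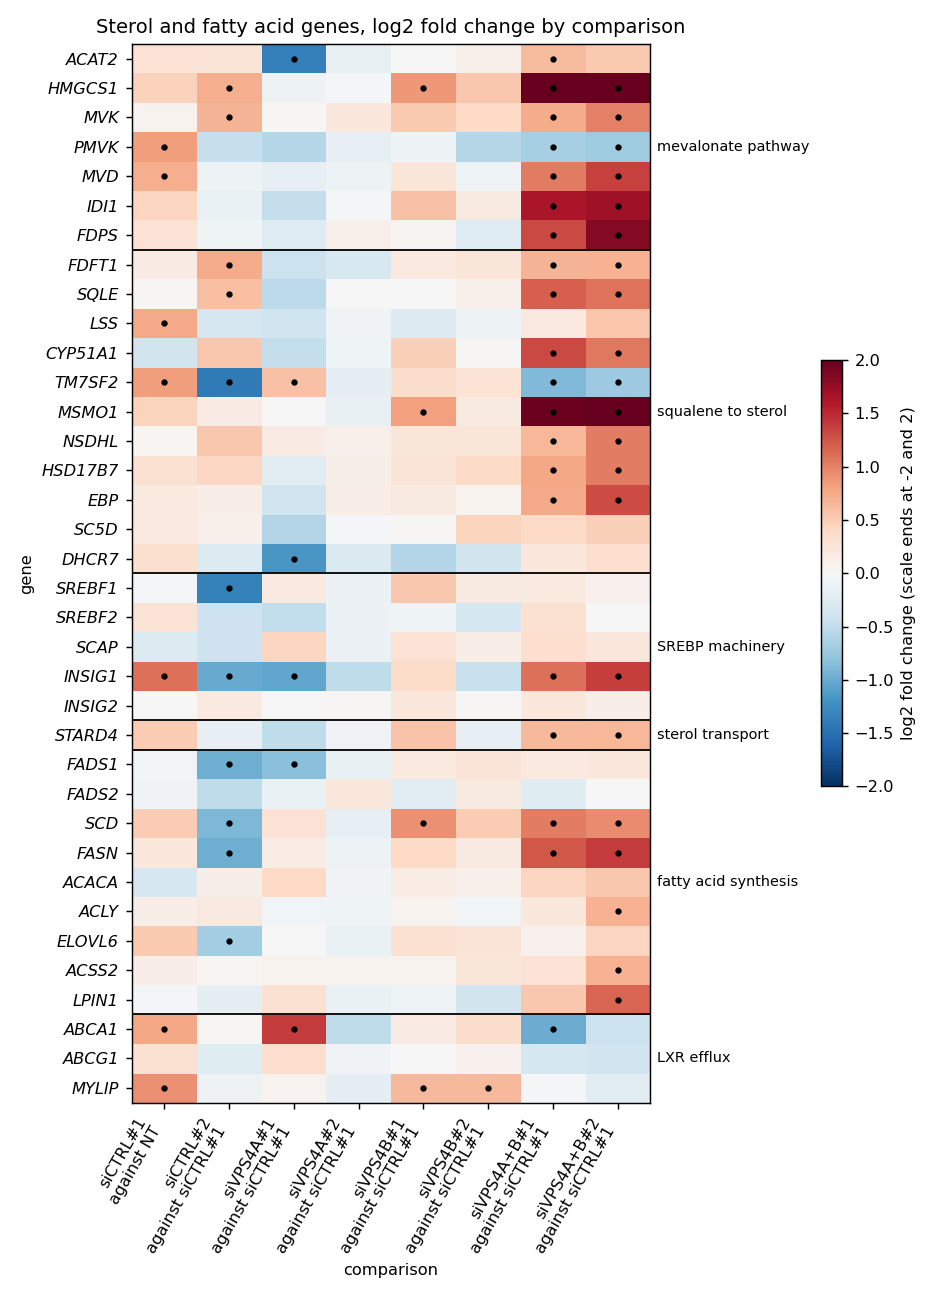
Log2 fold change of the 36 members, grouped by role, in 8 comparisons, 1 of siCTRL#1 against NT and 7 against siCTRL#1, with colour from -2 to 2 and a dot where the limma test and a fold of 1.5 were both passed. The columns of both pairs hold 17 and 19 members called higher, and the siVPS4A#2 column holds 0.

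The promoters of 31 members were found in RefSeq's table on GRCh38.p14, as 44 windows of 300 bases from 250 before to 50 after the start. No window is in the table for ABCG1, ACAT2, FASN, FDFT1 and SQLE. SREBPs bind sterol regulatory elements and work with the factor NF-Y, which binds CCAAT, so both motifs were searched on both strands. The letters CCAAT were in 26 of the 44 windows (59.1%), in 35.0% of the 14802 promoters of listed genes and in 34.6% of all 35116 promoters in the table. They were in 13 of 16 windows (81.2%) of the members higher in both pairs against both siCTRL#1 and NT, and in 13 of 28 windows (46.4%) of the others. These shares count windows, not genes, so a gene with several starts counts more than once, such as IDI1 with 3 and HMGCS1 with 2. TCACNCCAC was in 1 of 44 windows (2.27%), against 1.13% of all promoters. The GC box GGGCGG was in 39 of 44 windows (88.6%), against 66.3% of promoters of listed genes and 45.0% of all. In the same split of members, the GC box was in 15 of 16 windows (93.8%) and 24 of 28 (85.7%). TCACNCCAC was in 0 of the 16 and 1 of the 28. The LXR element called DR4, AGGTCA repeated after 4 bases with no mismatch allowed, was in 0 of 44 windows, against 0.0199% of all promoters. A match is a description of letters, not evidence of binding.

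The 250 bases before the start are shown for the 5 members with the largest mean rise over both pairs among those with a window, for PMVK and TM7SF2, the 2 that fell with both, and for SREBF2, the member whose window holds TCACNCCAC. Where a gene has several windows, the first in the table is shown. Capitals mark CCAAT, or ATTGG where it lies on the other strand, and TCACNCCAC. Positions are HMGCS1 chr5:43313413-43313662, minus strand, MSMO1 chr4:165327419-165327668, plus strand, IDI1 chr10:1056705-1056954, minus strand, FDPS chr1:155308616-155308865, plus strand, INSIG1 chr7:155297628-155297877, plus strand, PMVK chr1:154936720-154936969, minus strand, TM7SF2 chr11:65111622-65111871, plus strand, and SREBF2 chr22:41832855-41833104, plus strand.
HMGCS1: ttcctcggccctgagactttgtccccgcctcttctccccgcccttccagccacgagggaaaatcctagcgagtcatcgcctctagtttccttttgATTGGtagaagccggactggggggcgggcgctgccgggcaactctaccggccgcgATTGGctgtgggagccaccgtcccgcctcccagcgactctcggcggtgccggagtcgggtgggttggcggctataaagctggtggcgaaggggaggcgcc
MSMO1: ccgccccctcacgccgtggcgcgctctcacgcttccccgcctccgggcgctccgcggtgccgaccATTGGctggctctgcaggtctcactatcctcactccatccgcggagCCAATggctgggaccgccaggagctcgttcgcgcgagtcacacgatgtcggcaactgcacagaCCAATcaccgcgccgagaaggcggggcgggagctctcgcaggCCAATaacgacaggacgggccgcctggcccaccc
IDI1: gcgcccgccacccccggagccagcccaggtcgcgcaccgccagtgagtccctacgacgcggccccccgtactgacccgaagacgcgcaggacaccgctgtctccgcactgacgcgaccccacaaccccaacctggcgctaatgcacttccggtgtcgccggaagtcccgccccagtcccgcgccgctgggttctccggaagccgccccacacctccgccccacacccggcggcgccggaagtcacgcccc
FDPS: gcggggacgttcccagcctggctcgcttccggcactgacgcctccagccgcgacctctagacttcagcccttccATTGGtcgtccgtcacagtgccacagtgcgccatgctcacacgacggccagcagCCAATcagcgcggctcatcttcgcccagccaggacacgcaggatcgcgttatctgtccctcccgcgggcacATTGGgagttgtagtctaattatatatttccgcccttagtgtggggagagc
INSIG1: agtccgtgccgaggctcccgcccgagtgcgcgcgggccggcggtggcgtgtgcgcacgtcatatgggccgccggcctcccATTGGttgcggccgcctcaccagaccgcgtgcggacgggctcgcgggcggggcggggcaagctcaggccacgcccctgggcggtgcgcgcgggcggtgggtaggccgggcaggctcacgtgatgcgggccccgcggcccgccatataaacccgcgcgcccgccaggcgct
PMVK: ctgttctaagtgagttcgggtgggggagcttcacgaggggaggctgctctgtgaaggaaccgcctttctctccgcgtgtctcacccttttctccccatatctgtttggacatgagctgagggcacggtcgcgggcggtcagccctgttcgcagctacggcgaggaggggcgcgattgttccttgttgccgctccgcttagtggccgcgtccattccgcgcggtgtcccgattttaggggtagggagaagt
TM7SF2: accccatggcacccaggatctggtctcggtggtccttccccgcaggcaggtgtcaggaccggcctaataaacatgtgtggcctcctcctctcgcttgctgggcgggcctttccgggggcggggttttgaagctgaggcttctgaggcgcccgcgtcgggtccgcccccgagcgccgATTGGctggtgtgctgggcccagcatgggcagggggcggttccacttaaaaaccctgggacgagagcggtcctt
SREBF2: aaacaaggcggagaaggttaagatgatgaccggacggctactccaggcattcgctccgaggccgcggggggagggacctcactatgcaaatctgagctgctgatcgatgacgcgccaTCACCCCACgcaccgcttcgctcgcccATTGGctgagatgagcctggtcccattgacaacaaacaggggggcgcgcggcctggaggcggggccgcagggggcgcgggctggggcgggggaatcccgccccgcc
MSMO1 carries 4 CCAAT boxes in this stretch, FDPS carries 3, HMGCS1 carries 2, and INSIG1 and TM7SF2 carry 1 each. SREBF2 carries 1 beside its TCACNCCAC, and IDI1 and PMVK carry 0. The 2 other windows of IDI1 hold 3 and 2 boxes before the start, and the other window of HMGCS1 holds 0. The 36 members lie on 18 chromosomes.

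HMGCS1, the synthase that makes HMG-CoA at the start of the mevalonate pathway, read 36.2, 54.1, 57.9 and 54.9 in the NT libraries and 52.7, 91.2, 99.2, 48.9 and 92.8 in the siCTRL#1 libraries. It read 411, 413, 781 and 615 with siVPS4A+B#1, and 416, 809, 832 and 681 with siVPS4A+B#2. All 8 libraries of the pairs stood above the other 29, the highest of which was a siVPS4B#1 library at 159.9. The other conditions spanned 91.6 to 129 with siCTRL#2, 51.0 to 91.4 with siVPS4A#1, 48.4 to 90.6 with siVPS4A#2, 105 to 159.9 with siVPS4B#1 and 75.8 to 133 with siVPS4B#2. HMGCS1 showed the largest log2 fold change of the 36 members in each pair against siCTRL#1, 2.93 ± 0.19 (SE) with siVPS4A+B#1 (adjusted p = 5.59e-16) and 3.24 ± 0.19 with siVPS4A+B#2 (adjusted p = 2.23e-17). MVK, the kinase that phosphorylates mevalonate, read 20.1, 29.2, 34.8 and 28.4 in NT and 22.2, 29.2, 35.2, 28.5 and 33.4 with siCTRL#1. Its libraries read 59.1, 36.2, 60.0 and 45.1 with siVPS4A+B#1, and 47.9, 62.8, 76.9 and 54.7 with siVPS4A+B#2. The pairs stood above every NT and siCTRL#1 library and overlapped the other conditions, of which siVPS4B#2 reached 59.7. MVK rose by a log2 fold change of 0.74 ± 0.14 and 1.01 ± 0.14 (adjusted p = 5.46e-05 and 1.45e-07). The call in siVPS4A+B#1 fell under the 1.5-fold limit without replicate 1, at a log2 fold change of 0.55, and with library totals, at 0.56.

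MVD, which turns mevalonate pyrophosphate into isopentenyl pyrophosphate, read 36.6, 54.9, 67.9 and 61.7 in NT and 83.2, 79.3, 127, 81.4 and 81.8 with siCTRL#1. MVD then read 190.4, 152, 207 and 194 with siVPS4A+B#1, and 193, 259, 304 and 197 with siVPS4A+B#2. The 8 pair libraries lay above all others, of which siCTRL#1 replicate 3 was the highest at 127. Elsewhere MVD spanned 74.1 to 91.4 with siCTRL#2, 76.6 to 81.3 with siVPS4A#1, 68.1 to 94.5 with siVPS4A#2, 88.5 to 126 with siVPS4B#1 and 71.3 to 109 with siVPS4B#2. It rose by 1.03 ± 0.14 and 1.37 ± 0.14 on the log2 scale (adjusted p = 9.59e-08 and 9.7e-11). IDI1, which isomerises isopentenyl pyrophosphate, read 62.9, 97.0, 116 and 86.4 in NT and 101, 150.0, 152, 84.9 and 128 with siCTRL#1. Silencing of both genes gave 328, 303, 450.4 and 421 for siVPS4A+B#1, and 264, 398, 519 and 417 for siVPS4A+B#2. None of the 8 overlapped the other 29, where siVPS4B#1 reached 218. Single silencing gave IDI1 at 64.2 to 107 with siVPS4A#1, 86.3 to 139.8 with siVPS4A#2, 146 to 218 with siVPS4B#1 and 112 to 188 with siVPS4B#2, and siCTRL#2 gave 84.2 to 125. The rise of IDI1 was 1.63 ± 0.16 and 1.69 ± 0.16 on the log2 scale (adjusted p = 2.44e-10 and 5.19e-11).

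FDPS, which joins these units into farnesyl pyrophosphate, read 43.3, 55.8, 65.6 and 58.1 in NT and 62.8, 53.2, 93.0, 70.1 and 56.3 with siCTRL#1. Levels of FDPS were 166, 125, 229 and 170.0 with siVPS4A+B#1, and 229, 249, 273 and 217 with siVPS4A+B#2. Again the 8 pair libraries stood above all 29 others, which reached 96.4 with siVPS4B#1. Its other levels were 49.9 to 71.9 with siCTRL#2, 47.3 to 63.5 with siVPS4A#1, 57.8 to 83.3 with siVPS4A#2, 56.7 to 96.4 with siVPS4B#1 and 50.1 to 66.7 with siVPS4B#2. FDPS rose by 1.31 ± 0.14 and 1.83 ± 0.14 on the log2 scale (adjusted p = 1.59e-09 and 2.14e-13). ACAT2, a thiolase that makes acetoacetyl-CoA, rose with siVPS4A+B#1 at 0.63 ± 0.16 (adjusted p = 0.00181). That call was lost in 6 of 15 alternatives: at 0.46 with library totals, 0.577 with upper quartile scaling, 0.582 without replicate 3 and 0.43 without replicate 4, and at an adjusted p of 0.0834 without a block and 0.0507 with siVPS4A#1 replicate 2 kept. With siVPS4A+B#2 its log2 fold change of 0.52 had an adjusted p of 0.00727 but was under 1.5-fold. ACAT2 libraries spanned 25.9 to 66.2 and 22.2 to 57.7 in the pairs and overlapped siCTRL#1 at 18.9 to 40.0. PMVK, the kinase that follows MVK, was the exception in the pathway. It spanned 33.3 to 53.0 with siCTRL#1, 12.6 to 51.3 with siVPS4A+B#1, 18.3 to 31.8 with siVPS4A+B#2 and 15.8 to 29.4 in NT, so that siVPS4A+B#2 was below siCTRL#1 without overlap, siVPS4A+B#1 overlapped it, and both overlapped NT. PMVK fell by 0.67 and 0.70 on the log2 scale against siCTRL#1 (adjusted p = 0.0281 and 0.0169), while against NT it stood at 0.17 and 0.14 and did not pass. With siVPS4A+B#1 it was lower than siCTRL#1 in 3 of 4 replicate numbers. That call was lost with edgeR and DESeq2 (adjusted p = 0.0722 and 0.129), with siVPS4A#1 replicate 2 kept, and without replicate 2, 3 or 4. The call with siVPS4A+B#2 was lost with that library kept (adjusted p = 0.0532) and without replicate 3 (adjusted p = 0.254).

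SQLE, the epoxidase that oxidises squalene, read 16.5, 26.0, 20.5 and 21.4 in NT and 16.5, 21.3, 24.7, 22.4 and 20.6 with siCTRL#1. SQLE reached 44.4, 33.0, 65.9 and 62.3 with siVPS4A+B#1, and 32.3, 42.3, 70.9 and 45.3 with siVPS4A+B#2. Those 8 libraries were above every NT and siCTRL#1 library, and overlapped siCTRL#2, whose highest was 36.4. SQLE spanned 12.3 to 15.8 with siVPS4A#1, 18.2 to 25.6 with siVPS4A#2, 18.0 to 24.1 with siVPS4B#1 and 17.5 to 29.9 with siVPS4B#2. Its rise was 1.19 ± 0.18 and 1.08 ± 0.18 on the log2 scale (adjusted p = 1.2e-06 and 4.25e-06). FDFT1, which makes squalene, read 255, 272, 314 and 283 in NT and 246, 354, 375, 273 and 340.5 with siCTRL#1. FDFT1 came to 451, 331, 693 and 640.0 with siVPS4A+B#1, and to 492, 475, 649.8 and 443 with siVPS4A+B#2. The siVPS4A+B#1 library of replicate 2 lay within the siCTRL#1 range, and siCTRL#2, at 493 to 604, overlapped both pairs. The log2 fold changes of FDFT1 were 0.69 and 0.69 (adjusted p = 0.000125 and 7.67e-05). They dropped under 1.5-fold with library totals, at 0.51 and 0.56, and in siVPS4A+B#1 without replicate 4, at 0.51.

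CYP51A1, the demethylase that acts on lanosterol, read 233, 124, 138 and 140.5 in NT and 126, 109, 115, 115 and 115 with siCTRL#1. CYP51A1 was at 228, 192, 450.2 and 414 with siVPS4A+B#1, and at 226, 222, 419 and 179.9 with siVPS4A+B#2. All pair libraries exceeded siCTRL#1, while NT replicate 1, at 233, and some siCTRL#2 and siVPS4B#1 libraries overlapped them. Ranges elsewhere were 142 to 217 with siCTRL#2, 65.7 to 110.4 with siVPS4A#1, 109 to 123 with siVPS4A#2, 150.4 to 191 with siVPS4B#1 and 104 to 131 with siVPS4B#2. CYP51A1 rose by 1.32 ± 0.19 and 1.05 ± 0.19 (adjusted p = 5.89e-07 and 2.03e-05). MSMO1, the methylsterol oxidase of the same stretch of the pathway, read 58.2, 61.7, 84.3 and 55.7 in NT and 57.4, 124, 89.9, 77.9 and 122 with siCTRL#1. MSMO1 libraries came to 327, 214, 515 and 396 with siVPS4A+B#1, and to 256, 444, 525 and 340.0 with siVPS4A+B#2. All 8 were above the other 29, where siVPS4B#1 was highest at 182. Its remaining ranges were 80.2 to 109 with siCTRL#2, 85.0 to 97.6 with siVPS4A#1, 64.1 to 89.8 with siVPS4A#2, 131 to 182 with siVPS4B#1 and 77.2 to 113 with siVPS4B#2. Next to HMGCS1, MSMO1 showed the largest rise of the members, 1.96 ± 0.18 and 2.09 ± 0.18 on the log2 scale (adjusted p = 1.59e-11 and 2.09e-12).

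**Figure D2:**
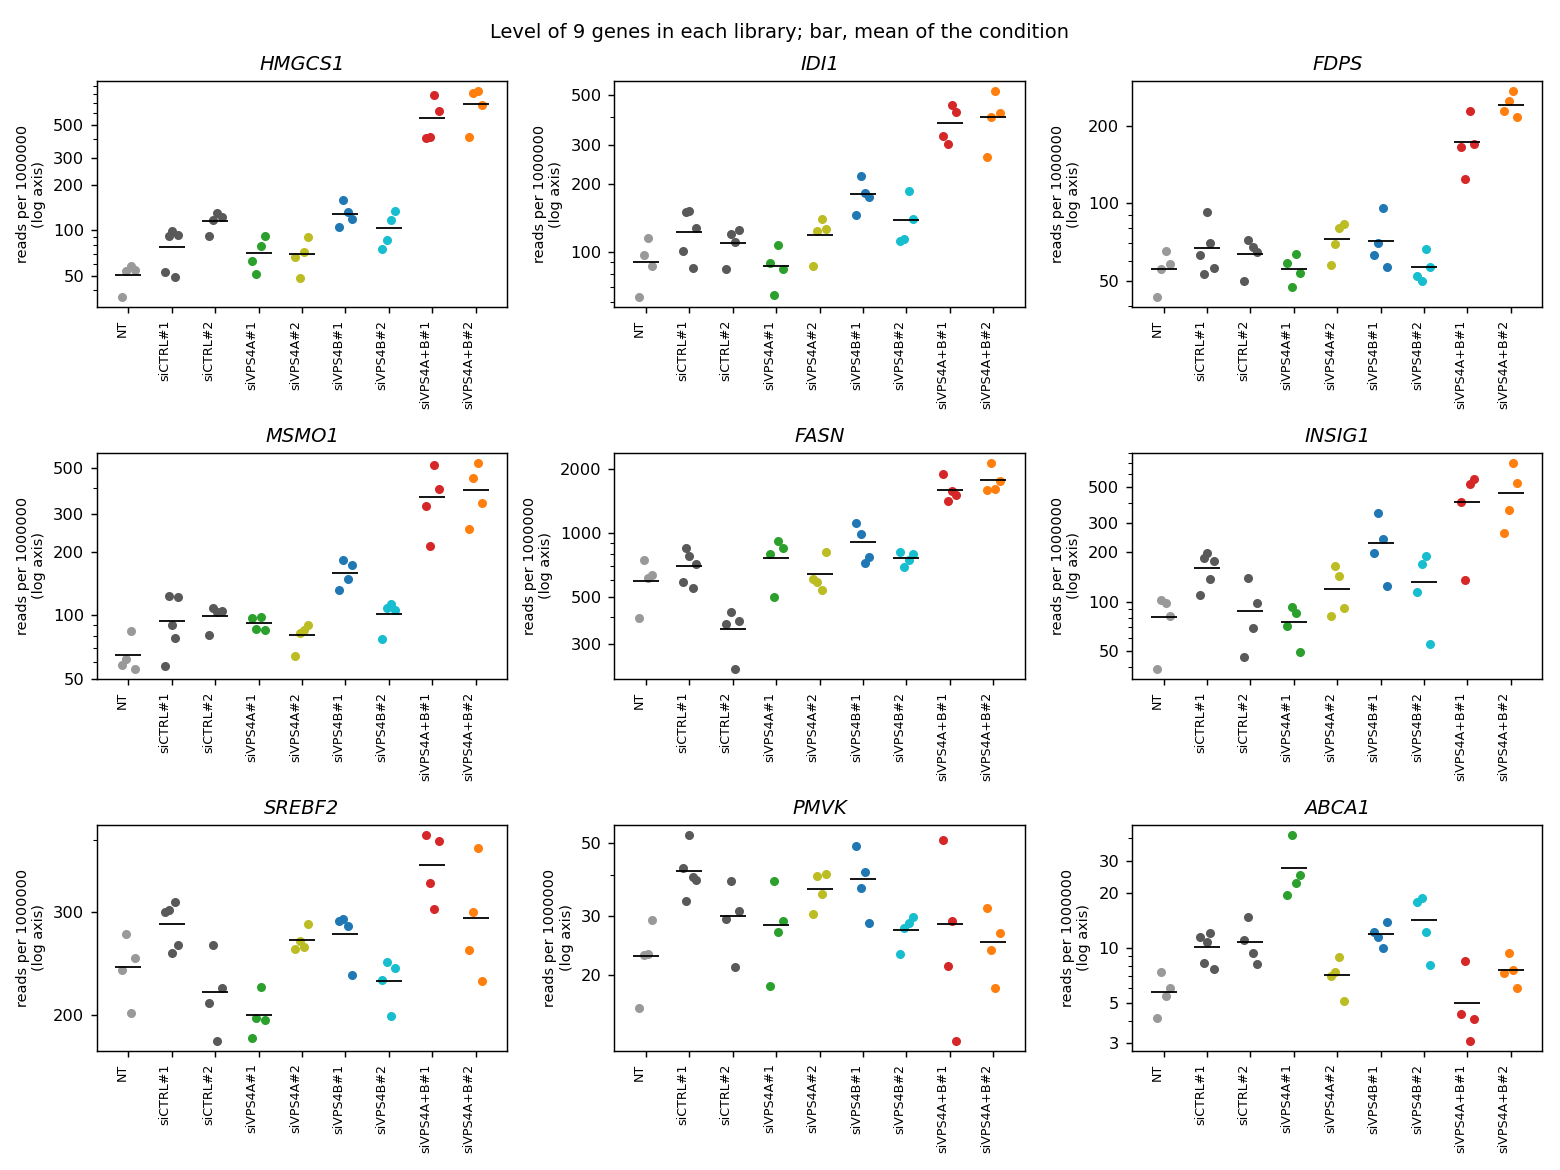
Level of 9 members in each of the 37 libraries (reads per 1000000 after TMM scaling, log axis) by condition, each point 1 library and each bar the mean of its condition. HMGCS1, IDI1, FDPS, MSMO1 and FASN in the 8 libraries of the pairs lie above the other 29, while PMVK, SREBF2, INSIG1 and ABCA1 overlap.

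NSDHL, a dehydrogenase that works with MSMO1, read 20.5, 20.8, 29.7 and 31.5 in NT and 23.2, 24.9, 33.2, 23.5 and 28.5 with siCTRL#1. NSDHL was found at 35.2, 39.6, 55.7 and 37.7 with siVPS4A+B#1, and at 42.0, 55.5, 70.0 and 50.1 with siVPS4A+B#2. Each pair library was above NT and siCTRL#1, and siCTRL#2 and siVPS4B#2 overlapped them at up to 45.2 and 37. The rise of 0.66 and 1.02 on the log2 scale (adjusted p = 3.95e-05 and 7.29e-09) came to 0.49, under 1.5-fold, in siVPS4A+B#1 with library totals. HSD17B7, a ketoreductase of this step, read 6.55, 9.49, 15.7 and 11.2 in NT and 10.4, 14.7, 18.6, 9.85 and 13.4 with siCTRL#1. HSD17B7 gave 15.6, 15.8, 40.9 and 26.2 with siVPS4A+B#1, and 21.8, 26.0, 45.8 and 21.0 with siVPS4A+B#2. The siVPS4A+B#2 libraries were all above siCTRL#1 and those of siVPS4A+B#1 overlapped it. HSD17B7 rose by 0.77 ± 0.19 and 1.02 ± 0.19 (adjusted p = 0.00152 and 3.3e-05).

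EBP, an isomerase late in the pathway, read 49.4, 69.0, 83.6 and 90.6 in NT and 85.4, 62.2, 115, 74.1 and 66.7 with siCTRL#1. EBP libraries held 141, 109.5, 178 and 133 with siVPS4A+B#1, and 172, 211, 278 and 167 with siVPS4A+B#2. With siVPS4A+B#2 all 4 were above every other condition except siVPS4A+B#1, whose lowest library fell within the siCTRL#1 range. EBP spanned 83.7 to 94.9 with siCTRL#2, 43.4 to 83.0 with siVPS4A#1, 76.7 to 104 with siVPS4A#2, 80.9 to 125 with siVPS4B#1 and 74.3 to 99.0 with siVPS4B#2. It rose by 0.75 ± 0.15 and 1.30 ± 0.15 (adjusted p = 0.000108 and 3.33e-09), and in siVPS4A+B#1 the value was 0.58, under 1.5-fold, with library totals. TM7SF2, a sterol reductase, moved the other way. It spanned 17.1 to 32.3 in NT, 42.5 to 49.4 with siCTRL#1, 12.7 to 36.2 with siVPS4A+B#1 and 23.7 to 29.9 with siVPS4A+B#2, so that both pairs were below siCTRL#1 without overlap and overlapped NT. TM7SF2 fell by 0.89 and 0.73 against siCTRL#1 (adjusted p = 0.000642 and 0.0034), while against NT it stood at -0.05 and 0.11. Both calls were lost with siVPS4A#1 replicate 2 kept (adjusted p = 0.0513 and 0.102), and the first without replicate 4, at -0.57. Of the remaining enzymes, LSS, the cyclase that forms lanosterol, had log2 fold changes of 0.20 and 0.55, SC5D, a desaturase, 0.40 and 0.47, and DHCR7, the last reductase of a branch, 0.20 and 0.33, and none of these reached 1.5-fold. LSS was read at low depth, 5 to 48 reads per library.

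SREBF1 encodes an SREBP that acts mainly on fatty acid genes and SREBF2 one that acts mainly on sterol genes. SREBF1 read 81.3, 90.7, 87.9 and 104 in NT, 90.4, 96.6, 79.6, 97.0 and 109 with siCTRL#1, 117, 106, 117 and 73.7 with siVPS4A+B#1, and 87.5, 76.4, 92.1 and 132 with siVPS4A+B#2. SREBF2 read 239, 276, 201 and 251 in NT, 300.2, 303, 256, 313 and 264 with siCTRL#1, 408, 337, 304 and 398 with siVPS4A+B#1, and 258, 301, 387 and 229 with siVPS4A+B#2. The pair libraries of either gene overlapped siCTRL#1. Log2 fold changes were 0.19 and 0.09 for SREBF1 and 0.31 and -0.01 for SREBF2, and none passed (adjusted p = 0.416, 0.7, 0.0612 and 0.955). In siVPS4A+B#2 the sign of both is not settled, since SREBF1 came to -0.04 with library totals and SREBF2 to 0.14 without replicate 4. SCAP, the escort of the SREBPs, read 196, 206, 185 and 166 in NT, 175, 140.1, 152, 159.6 and 146 with siCTRL#1, 199, 204, 169 and 217 with siVPS4A+B#1, and 199, 226, 143 and 172 with siVPS4A+B#2. Its groups overlapped, with log2 fold changes of 0.33 and 0.22 (adjusted p = 0.0529 and 0.18). Within replicate numbers siVPS4A+B#1 was above siCTRL#1 in 4 of 4 for SCAP (0.152 to 0.542) and for SREBF2 (0.156 to 0.441), and in 3 of 4 for SREBF1. With siVPS4A+B#2 this was 3 of 4 for SCAP, 1 of 4 for SREBF2 and 2 of 4 for SREBF1.

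INSIG1, which retains SCAP and is itself an SREBP target, read 39.2, 102, 99.0 and 82.4 in NT and 109.9, 184, 199, 138 and 176 with siCTRL#1. INSIG1 read 403, 136, 520.5 and 555 with siVPS4A+B#1, and 262, 361, 697 and 527 with siVPS4A+B#2. The siVPS4A+B#2 libraries lay above every NT and siCTRL#1 library, as did those of siVPS4A+B#1 apart from replicate 2. INSIG1 spread widely within conditions, with 46.4 to 139.9 under siCTRL#2, 49.6 to 93.4 under siVPS4A#1, 81.7 to 166 under siVPS4A#2, 125 to 344 under siVPS4B#1 and 55.6 to 189 under siVPS4B#2. It rose by 1.11 ± 0.32 with siVPS4A+B#1 (adjusted p = 0.00601) and 1.39 ± 0.32 with siVPS4A+B#2 (adjusted p = 0.000481). The first of these was above siCTRL#1 in 3 of 4 replicate numbers, -0.44 in replicate 2, and its adjusted p came to 0.0727, 0.0510 and 0.0501 without replicate 1, 3 or 4 and to 0.0594 with siVPS4A#1 replicate 2 kept. INSIG2, the related gene not known as an SREBP target, read 4.70, 4.74, 4.85 and 6.11 in NT, 4.38, 3.97, 4.91, 6.95 and 7.28 with siCTRL#1, 5.15, 6.69, 7.28 and 5.42 with siVPS4A+B#1, and 5.08, 7.04, 5.28 and 5.41 with siVPS4A+B#2. INSIG2 groups overlapped throughout, at log2 fold changes of 0.21 and 0.13, the latter -0.05 without replicate 2.

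STARD4, a carrier that moves sterol between membranes, read 38.3, 34.8, 33.3 and 33.2 in NT and 50.7, 47.8, 48.1, 52.1 and 43.7 with siCTRL#1. STARD4 read 85.1, 67.8, 85.4 and 77.1 with siVPS4A+B#1, and 67.3, 76.0, 104 and 75.1 with siVPS4A+B#2. The pairs were above NT and siCTRL#1 and overlapped siVPS4B#1, at 70.0 to 79.9. It rose by 0.65 ± 0.13 and 0.67 ± 0.13 (adjusted p = 7.02e-05 and 3.18e-05). The values were 0.47 and 0.54, under 1.5-fold, with library totals, and 0.55 in siVPS4A+B#2 without replicate 3.

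FASN, the synthase that builds palmitate, read 395, 745, 609 and 631 in NT and 584, 847, 779, 551 and 715 with siCTRL#1. FASN read 1913, 1410.5, 1574 and 1510.0 with siVPS4A+B#1, and 1602, 2142, 1622 and 1764 with siVPS4A+B#2. The 8 pair libraries stood above the other 29, of which a siVPS4B#1 library was highest at 1118. Other ranges of FASN were 228 to 422 with siCTRL#2, 497 to 916 with siVPS4A#1, 539.5 to 817 with siVPS4A#2, 724 to 1118 with siVPS4B#1 and 692 to 815 with siVPS4B#2. FASN rose by 1.24 ± 0.18 and 1.40 ± 0.18 (adjusted p = 4.38e-07 and 2.49e-08). SCD, the desaturase that makes oleate, read 2129.9, 3059, 3357 and 2904 in NT and 3358, 4384, 5022, 3271 and 4695 with siCTRL#1. SCD read 7955, 7982, 8183 and 8551 with siVPS4A+B#1, and 5886, 8649, 7789.7 and 8841 with siVPS4A+B#2. These were above NT and siCTRL#1 and overlapped siVPS4B#1 and siVPS4B#2, at 6323 to 8447 and 5111 to 6497, and siVPS4A#1, at 4277 to 5895. SCD rose by 1.03 ± 0.15 and 0.94 ± 0.15 (adjusted p = 9.41e-07 and 2.8e-06).

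ACLY, which makes cytosolic acetyl-CoA from citrate, spanned 292 to 358 with siCTRL#1, 291 to 496 with siVPS4A+B#1 and 422 to 832 with siVPS4A+B#2. It rose with siVPS4A+B#2 at 0.70 ± 0.14 (adjusted p = 7.11e-05), and its value with siVPS4A+B#1 was 0.21. The call fell under 1.5-fold with library totals, at 0.57, and without replicate 3, at 0.54. LPIN1, a phosphatidate phosphatase, spanned 4.04 to 6.05 with siCTRL#1, 5.63 to 10.1 with siVPS4A+B#1 and 7.44 to 19.1 with siVPS4A+B#2. It rose with siVPS4A+B#2 at 1.16 ± 0.21 (adjusted p = 2.28e-05) and was at 0.54 with siVPS4A+B#1, under 1.5-fold. LPIN1 was also the single member past both limits between the pairs, -0.62 for siVPS4A+B#1 against siVPS4A+B#2 (adjusted p = 0.0291), a comparison in which 9.92% of all genes were called higher and 7.53% lower. Under 1.5-fold but at an adjusted p under 0.05 were EBP (-0.55), FDPS (-0.51), ACLY (-0.49), NSDHL (-0.36) and ABCA1 (-0.57), all lower in siVPS4A+B#1. The count of 1 was 3 without replicate 1 or replicate 4 and with library totals, 2 with a pseudocount of 0.1, and 0 with siVPS4A#1 replicate 2 kept or with only the compared conditions fitted. ACSS2, which makes acetyl-CoA from acetate, was near the floor with 0 to 3 reads with siCTRL#1 and 3 to 7 with siVPS4A+B#2, where it was called higher (adjusted p = 0.000546), and the filter on a mean of 1 read per 1000000 removes it. ACACA, the carboxylase that makes malonyl-CoA, was at 0.43 and 0.55, and ELOVL6, an elongase, at 0.08 and 0.43, all under 1.5-fold. The desaturases FADS1 and FADS2 had log2 fold changes of 0.19 and 0.21, and of -0.25 and -0.01, and did not pass.

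ABCA1, the transporter that hands cholesterol to apolipoproteins, read 4.13, 7.35, 5.47 and 6.00 in NT and 11.4, 8.30, 10.8, 12.2 and 7.66 with siCTRL#1. ABCA1 read 4.37, 8.52, 3.10 and 4.10 with siVPS4A+B#1, and 7.28, 9.39, 7.53 and 6.01 with siVPS4A+B#2. It read 19.5, 41.7, 22.8 and 25.3 with siVPS4A#1, and 6.99, 7.39, 8.93 and 5.10 with siVPS4A#2. The siVPS4A#1 libraries were above all other 33, and those of the pairs overlapped NT and siCTRL#1. ABCA1 fell with siVPS4A+B#1 by 0.99 (adjusted p = 0.000333) and rose with siVPS4A#1 by 1.39 ± 0.21 (adjusted p = 1.19e-06). With siVPS4A+B#2 it was at -0.43 (adjusted p = 0.105), and without replicate 2 this came to -0.60 and passed. ABCG1, a related transporter, was near the floor, with 2 to 8 reads with siCTRL#1, 2 to 3 with siVPS4A+B#1 and 0 to 4 with siVPS4A+B#2. Its levels were 0.570, 0.356, 0.373 and 0.437 in NT, 0.337, 0.842, 1.19, 0.869 and 0.757 with siCTRL#1, 0.312, 0.456, 0.358 and 0.440 with siVPS4A+B#1, and 0.508, 0, 0.641 and 0.361 with siVPS4A+B#2, and the groups overlapped. The tests against siCTRL#1 gave adjusted p = 0.162 and 0.105. Within replicate numbers ABCG1 was below siCTRL#1 in 4 of 4 with siVPS4A+B#1 (-0.69 to -0.03) and in 3 of 4 with siVPS4A+B#2.

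MYLIP, an LXR-induced ligase that marks lipoprotein receptors for degradation, read 8.83, 4.27, 6.71 and 5.24 in NT and 14.5, 9.86, 12.7, 15.3 and 8.42 with siCTRL#1. MYLIP read 24.6, 20.5, 20.5 and 15.6 with siVPS4B#1, and 24.6, 22.8, 19.4 and 14.4 with siVPS4B#2. Its levels in the pairs were 10.9, 16.6, 10.7 and 10.8 with siVPS4A+B#1, and 12.4, 9.39, 11.5 and 8.90 with siVPS4A+B#2. The siVPS4B#1 libraries were above every NT and siCTRL#1 library, those of siVPS4B#2 were above NT and overlapped siCTRL#1, and the pairs overlapped siCTRL#1. It rose by 0.66 ± 0.17 with siVPS4B#1 and 0.65 ± 0.17 with siVPS4B#2 against siCTRL#1 (adjusted p = 0.00482 and 0.0102). The call with siVPS4B#2 was lost without replicate 1, 2 or 3 (adjusted p = 0.0595, 0.084 and 0.0539), with siVPS4A#1 replicate 2 kept (0.0722) and with only the compared conditions fitted (0.0687), and MYLIP was above siCTRL#1 in 3 of 4 replicate numbers there. The call with siVPS4B#1 fell under 1.5-fold without replicate 2, at 0.56. In the pairs its log2 fold changes were -0.03 and -0.22, the first of which turned to 0.10 without replicate 1. Within replicate numbers MYLIP was below siCTRL#1 in 3 of 4 with siVPS4A+B#1 and in 4 of 4 with siVPS4A+B#2 (-0.72 to -0.06).

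Silencing of VPS4A or VPS4B alone was compared with siCTRL#1 to see what each loss does without the other. With siVPS4A#1, 2 members rose and 4 fell, where 9.57% of all genes rose and 12.5% fell. ABCA1 and TM7SF2 rose, TM7SF2 by 0.59, and the 4 that fell were ACAT2 by 1.37, DHCR7 by 1.17, INSIG1 by 1.04 and FADS1 by 0.83 on the log2 scale. With siVPS4A#1 replicate 2 kept, the calls of TM7SF2, INSIG1 and FADS1 were lost. That of TM7SF2 was also lost without a block, with only the compared conditions fitted and without replicate 2, 4 or 5, and that of INSIG1 without replicate 5. The median of the members was -0.12, and that of all genes 0.01. With siVPS4A#2, limma called 0 of the 36 members, where 0.0396% of all genes rose and 0.0475% fell, at a member median of -0.09. At an unadjusted p under 0.05, 2 members were lower and 0 higher, with no share of all genes at that limit to set beside them. Of the members, edgeR called 0 and DESeq2 called 0. The duplexes themselves differed in 5 members (9.92% of all genes were called higher and 12.3% lower). The siVPS4A#1 libraries were higher than siVPS4A#2 in ABCA1 (1.90) and TM7SF2 (0.76) and lower in ACAT2 (-1.22), DHCR7 (-0.87) and FADS1 (-0.69). That count was 8 without replicate 2 or replicate 3, and 3 with siVPS4A#1 replicate 2 kept.

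With siVPS4B#1, 4 members rose and 0 fell, where 5.61% of all genes rose and 7.33% fell, and those that rose were SCD (0.91), HMGCS1 (0.87), MSMO1 (0.83) and MYLIP. The call of HMGCS1 was lost with siVPS4A#1 replicate 2 kept (adjusted p = 0.148). The member median was 0.21, and at an unadjusted p under 0.05 limma had 1 member lower, DHCR7. DHCR7 was at -0.58 with an adjusted p of 0.0167, just under 1.5-fold. IDI1 (0.58, adjusted p = 0.00831) and MVK (0.53, adjusted p = 0.00453) were higher but likewise under 1.5-fold. With library totals 4 rose and 1 fell, and without replicate 2, 3 rose and 1 fell. With siVPS4B#2 MYLIP rose and 0 members fell, where 3.01% of all genes rose and 4.56% fell, at a member median of 0.15. That count of 1 was 0 without replicate 1 or replicate 3, with siVPS4A#1 replicate 2 kept, and with only the compared conditions fitted, while edgeR and DESeq2 gave 1. At an unadjusted p under 0.05, limma had 5 members higher and 3 lower with siVPS4B#2. All 5 higher members also had an adjusted p under 0.05. The 3 lower, SREBF2, PMVK and DHCR7, did not (adjusted p = 0.0671, 0.117 and 0.166). The shares of all genes above hold for adjusted p and fold together, so these counts cannot be read against a background. Under 1.5-fold with siVPS4B#2 were HMGCS1 at 0.54 (adjusted p = 0.0453), SCD at 0.51 (0.0217), SC5D at 0.45 (0.0483) and MVK at 0.41 (0.0450). The VPS4B duplexes differed in 2 members (7.89% of all genes were called higher and 7.25% lower), with MSMO1 and STARD4 higher under siVPS4B#1 by 0.65 and 0.73, and in 1 with siVPS4A#1 replicate 2 kept.

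Comparisons with NT asked how the same libraries stand against cells without siRNA, and they share the NT libraries. In siVPS4A+B#1 against NT 21 members rose and 0 fell, where 12.6% of all genes rose and 13.3% fell. In siVPS4A+B#2 against NT 25 rose and 0 fell, where 13.2% of all genes rose and 15.7% fell. At an unadjusted p under 0.05, limma had 1 and 0 members lower. Member medians were 0.75 and 0.85, against -0.04 and -0.03 for all genes. HMGCS1 rose by 3.39 and 3.70, MSMO1 by 2.41 and 2.54, and INSIG1 by 2.21 and 2.50. The single duplexes against NT gave 5 members higher and 4 lower with siVPS4A#1 (11.6% and 13.4% of all genes) and 4 and 0 with siVPS4A#2 (4.32% and 3.83%). They gave 14 and 0 with siVPS4B#1 (10.8% and 11.6%) and 12 and 0 with siVPS4B#2 (7.63% and 7.9%). At an unadjusted p under 0.05, limma had 3, 1 and 0 members lower with siVPS4A#2, siVPS4B#1 and siVPS4B#2. Of the 3 with siVPS4A#2, ACACA (-0.41) also had an adjusted p under 0.05 (0.0387) but was under 1.5-fold.

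Members also differed between the control conditions. In siCTRL#1 against NT 7 members rose and 0 fell, where 4.84% of all genes rose and 4.21% fell, at a median of 0.28. They were INSIG1 (1.11), MYLIP (0.92), PMVK (0.84), TM7SF2 (0.84), ABCA1 (0.78), LSS (0.75) and MVD (0.72). At an unadjusted p under 0.05, limma had 1 member lower, and edgeR and DESeq2 each called 7 higher and 0 lower. The count of 7 was 3 without replicate 1, 2 without replicate 3, and 3 with siVPS4A#1 replicate 2 kept. PMVK and TM7SF2, which fell in the pairs against siCTRL#1, are among these 7, as is ABCA1, which fell with siVPS4A+B#1. In siCTRL#2 against siCTRL#1 4 members rose and 7 fell, where 5.84% of all genes rose and 11.0% fell, at a median of -0.10. The sterol enzymes FDFT1 (0.74), HMGCS1 (0.72), MVK (0.69) and SQLE (0.60) were higher. Lower were TM7SF2 (-1.41), SREBF1 (-1.35), INSIG1 (-1.0), FADS1 (-0.98), FASN (-0.97), SCD (-0.90) and ELOVL6 (-0.67). The calls of HMGCS1, SQLE and INSIG1 were lost with siVPS4A#1 replicate 2 kept, and those of HMGCS1, SQLE, INSIG1 and ELOVL6 in at least 1 fit without a replicate number. That of SQLE was also lost with library totals, at 0.55. Against NT, siCTRL#2 gave 9 higher and 4 lower (6.07% and 10.5% of all genes).

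In all 4 comparisons of combined silencing, each pair against siCTRL#1 and against NT, 16 members were called higher, where 3.96% of all genes were, and 0 lower, where 4.16% of all genes were. They were HMGCS1, MVK, MVD, IDI1, FDPS, FDFT1, SQLE, CYP51A1, MSMO1, NSDHL, HSD17B7, EBP, INSIG1, STARD4, SCD and FASN. The count was 17 with edgeR and 17 with DESeq2, and 11 with library totals. For VPS4B alone the count was 1, MYLIP, where 0.483% of all genes were called higher, and 0 without replicate 1 or replicate 3, with siVPS4A#1 replicate 2 kept, or with only the compared conditions fitted. For VPS4A alone it was 0 with limma, edgeR and DESeq2, where limma called 0.0% of all genes higher and 0.00792% lower. By levels, 6 members (HMGCS1, MVD, IDI1, FDPS, MSMO1 and FASN) had all 8 pair libraries above all other 29, where 1.1% of all genes did, and 12 had them above the 9 NT and siCTRL#1 libraries, where 4.19% did. By the same measure 0 members had them below all others (0.174% of all genes) or below the 9 (3.79%).

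Each pair was also set against the single duplexes it is made of. The siVPS4A+B#1 libraries differed from siVPS4A#2 in 16 members higher and 1 lower (11.4% and 12.1% of all genes), and from siVPS4B#1 in 11 higher and 3 lower (4.85% and 5.04%). With library totals the first split was 12 higher and 4 lower. The siVPS4A+B#2 libraries differed from siVPS4A#1 in 24 higher and 3 lower (8.55% and 8.93%), and from siVPS4B#2 in 18 higher and 3 lower (11.8% and 13.9%). Higher than both of its singles were 10 members in siVPS4A+B#1, where 3.54% of all genes were, and 18 in siVPS4A+B#2, where 4.11% were. Lower than both were TM7SF2 in siVPS4A+B#1 (2.3% of all genes) and TM7SF2 and ABCA1 in siVPS4A+B#2 (3.6%).

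An interaction term asked whether the log2 fold change of a pair differed from the sum of those of its single duplexes. Past the same thresholds, it was above 0 for 11 members and below 0 for 1 in siVPS4A+B#1 (3.82% and 2.38% of all genes). A value above 0 can come from a rise in the pair or from falls with the single duplexes. DHCR7, at 1.08 (adjusted p = 0.00621), is among the 11 although it did not reach 1.5-fold in the pair. It stood at -0.30 with siVPS4A#2 and -0.58 with siVPS4B#1. In siVPS4A+B#2 it was above 0 for 23 and below 0 for 4 (9.64% and 8.63% of all genes). The member medians were 0.37 and 0.82, against -0.01 and -0.000760 for all genes. The first count, 12 in all, was 6 without replicate 3 or replicate 4 and 2 with siVPS4A#1 replicate 2 kept, and the second, 27 in all, was 16 with that library kept. HMGCS1 had an interaction of 2.08 ± 0.27 and 2.81 ± 0.26 (SE; adjusted p = 6.26e-07 and 2.28e-10). FDPS had 1.16 ± 0.21 and 2.34 ± 0.20 (adjusted p = 0.000193 and 3.17e-11). TM7SF2 was below the sum with both, -1.07 and -1.59, and ABCA1 with siVPS4A+B#2, -2.17. SCD stood at 0.28 and 0.14, which did not pass (adjusted p = 0.536 and 0.694).

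**Figure D3:**
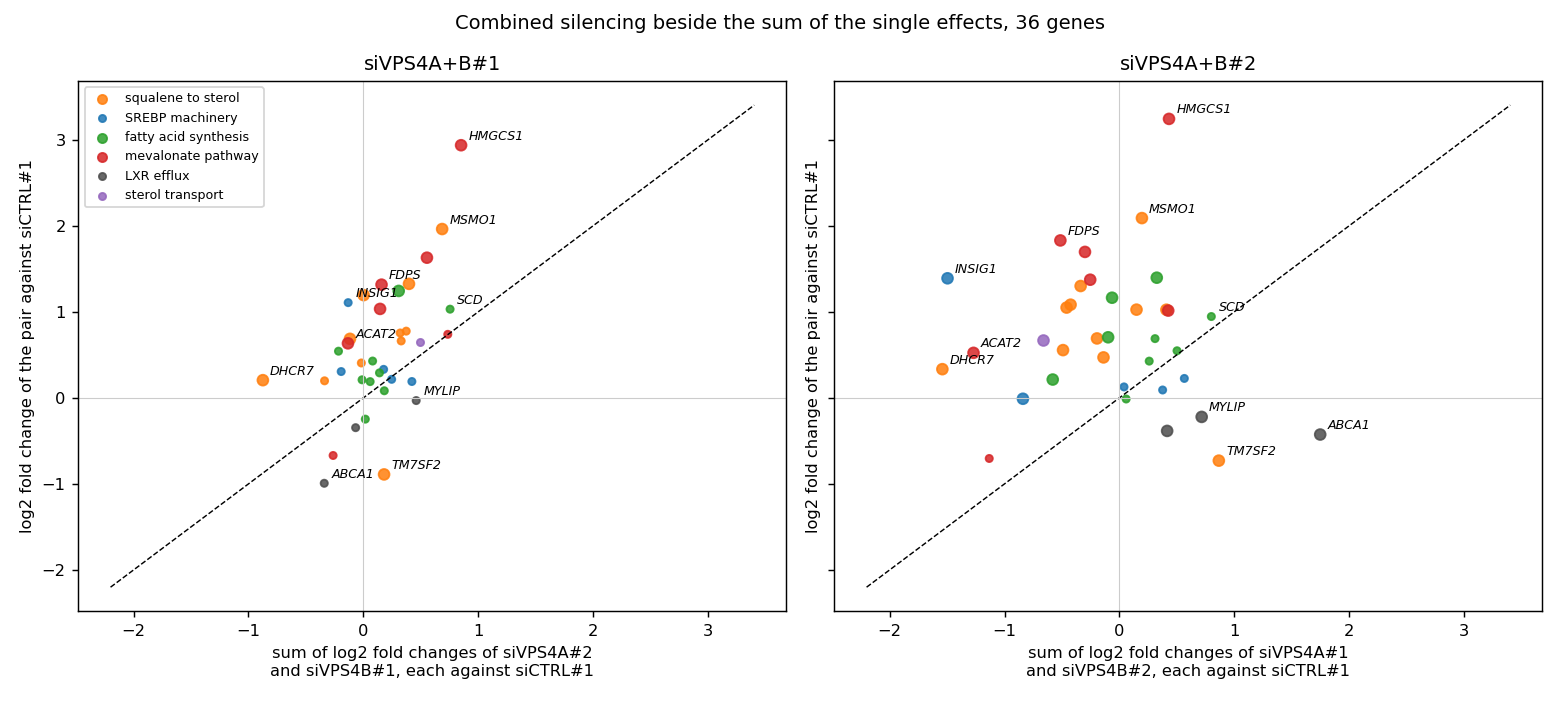
Log2 fold change of each of the 36 members in a pair against siCTRL#1 (vertical) over the sum of the log2 fold changes of its single duplexes (horizontal), with equality as a dashed line and larger points where the interaction passed the test. HMGCS1 lies highest, at 2.93 in siVPS4A+B#1 and 3.24 in siVPS4A+B#2, above the line in both.

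Other genes of these pathways were counted from 5 lists, where 10.6% of all genes rose and 11.5% fell with siVPS4A+B#1, and 12.8% rose and 15.9% fell with siVPS4A+B#2. Of 12 genes of SREBP activation and sterol sensing, 1 rose with siVPS4A+B#1 and 2 with siVPS4A+B#2, and 0 fell (medians 0.32 and 0.26). MBTPS1, the first protease that acts on SREBPs, rose with both (0.85 and 1.31), although siCTRL#1 libraries (50.5 ± 12.2, SD, n = 5) were lower than NT (97.6 ± 9.61, n = 4). It was also called higher against siCTRL#1 with siVPS4A#1 alone, at 0.72 (adjusted p = 0.000347), and with siVPS4B#1 alone, at 0.61 (adjusted p = 0.00477). Of 13 genes of the isoprenoid branch, which leads to ubiquinone, dolichol and prenylated proteins, 2 rose and 1 fell with siVPS4A+B#1. With siVPS4A+B#2 limma called 0 of these 13, with 3 higher and 0 lower at an unadjusted p under 0.05, a limit to which the shares of all genes above do not apply. All 3 also had an adjusted p under 0.05 (0.00405, 0.0183 and 0.0411) but were under 1.5-fold. Of 15 listed genes, of 16 named, for sterol transport and storage, 4 rose and 1 fell with siVPS4A+B#1, and 3 rose and 1 fell with siVPS4A+B#2. The sterol transfer gene GRAMD1B rose by 2.57 and 1.96, NPC1, which exports cholesterol from late endosomes, by 1.19 and 1.70, and the lipoprotein receptor gene LRP8 by 1.13 and 0.93. GRAMD1C fell by 0.66 and 1.20, and was also called lower with siVPS4A#1 alone, at -0.67 (adjusted p = 0.00483).

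Of 8 genes of LXR and its other targets, 2 rose and 1 fell with siVPS4A+B#1, and limma called 0 with siVPS4A+B#2, with 0 higher and 1 lower at an unadjusted p under 0.05. Of 25 other fatty acid and glycerolipid genes, 4 rose and 4 fell with siVPS4A+B#1, where 10.6% of all genes rose and 11.5% fell. With siVPS4A+B#2, 5 rose and 4 fell, where 12.8% of all genes rose and 15.9% fell. ME1, which supplies NADPH, rose by 1.52 and 2.26, the elongase gene ELOVL1 by 1.11 and 1.22, and FADS3 by 0.65 and 0.89. FADS3 was also called higher with siVPS4A#1 alone, at 0.90 (adjusted p = 1.02e-06), and was at 0.24 with siVPS4B#1 (adjusted p = 0.232). The non-targeting duplexes differed in FADS3 too, at -1.67 for siCTRL#2 against siCTRL#1 (adjusted p = 1.92e-12). ACACB, the mitochondrial acetyl-CoA carboxylase, fell by 0.86 and 0.59.

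**Figure D4:**
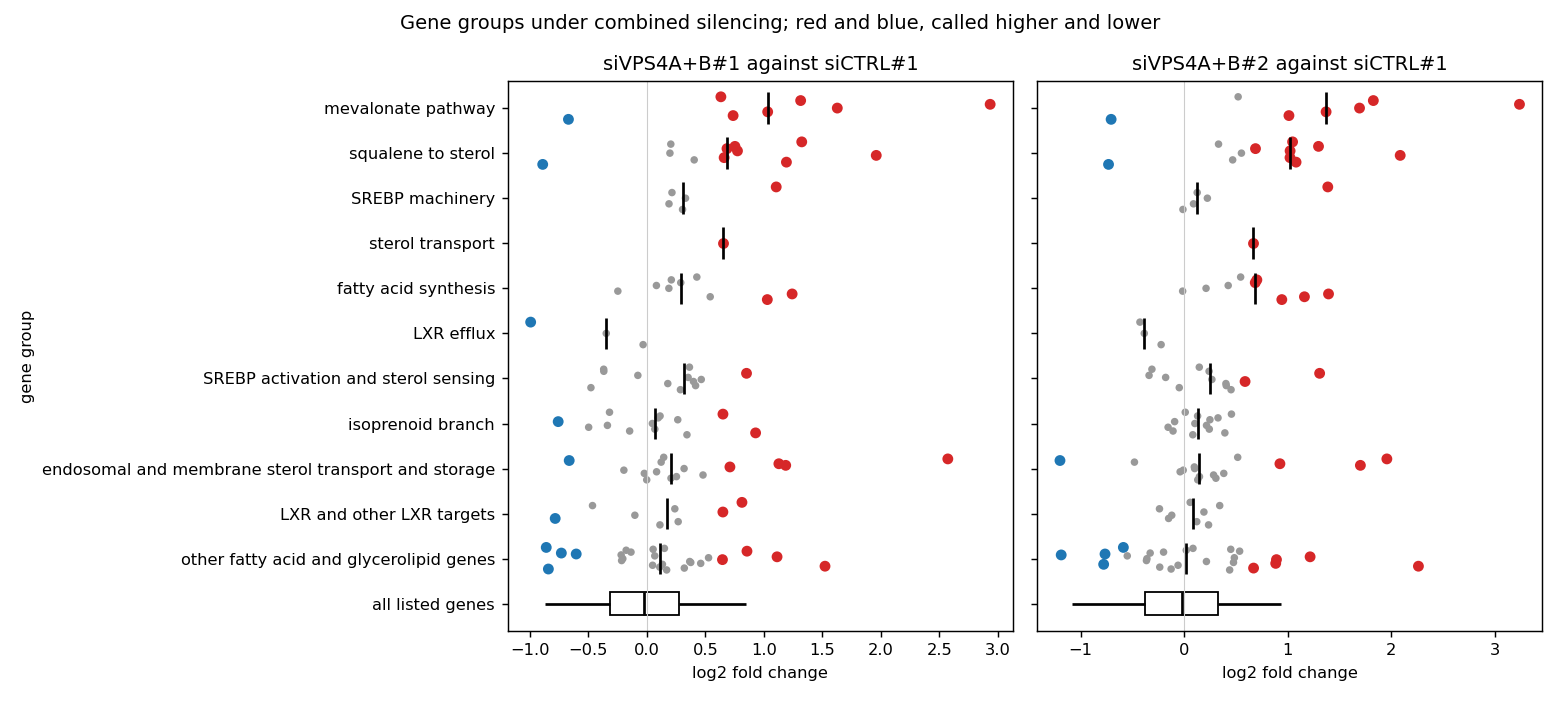
Log2 fold change of every listed gene of the 6 role groups and 5 other lists in each pair against siCTRL#1, with a black line at the median, red and blue for genes called higher and lower, and a box of quartiles with the range from 5 to 95% of all 12627 genes. The mevalonate group has medians of 1.03 and 1.37, and all genes have medians of -0.02.

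Markers of other cells were looked up in every library. The 8 epithelial markers, all listed, summed to 4582 to 8467, with KRT19 the most abundant, and ELF3 rose with both pairs (0.79 and 1.25). Their mean sum was 5565 with siCTRL#1 (4582 to 7209) and 7887 with siVPS4A+B#1 (7097 to 8467), and these ranges overlap. It was 4830 in NT (4676 to 4981), all below the siVPS4A+B#1 libraries. With siVPS4B#1 the mean sum was 7285 (6679 to 7764), and with siVPS4A+B#2 it was 6059 (5861 to 6538). Of 5 leukocyte markers only CD68 and LYZ were listed (PTPRC, CD3E and CD14 were not), and their sum ran from 5.22 to 176. CD68, which encodes a lysosomal membrane protein, made up most of it and rose with both pairs (3.92 and 2.65) and with siVPS4B#1 (1.36). Of 5 fibroblast markers 2 were listed, with a sum of 8.12 to 85.4 led by COL1A1 (COL1A2, COL3A1 and LUM were not listed). That sum differed between conditions, with means of 12.9 in NT (8.12 to 15.4), 26.4 in siCTRL#1 (15.9 to 32.1), 47.3 in siVPS4A#1 (34.2 to 61.2) and 62.9 in siVPS4A+B#2 (51.4 to 85.4). The siVPS4A#1 and siVPS4A+B#2 libraries were all above the siCTRL#1 libraries, while siVPS4A+B#1 (23.0 to 41.2) overlapped them. Of 4 endothelial markers 2 were listed, with a sum of 0.147 to 1.94. Their part in the result was not tested.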

How the data were processed

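The authors read RNA of 38 libraries with an Ion AmpliSeq panel, counted reads with HTSeq 0.6.0 and deposited 1 table of signal, which the values show to be each gene's share of its library's reads. Whole reads were recovered from it: all values up to 20 reads were whole within 0.1 read, and of the 470167 values above 0, 50.4% were printed to within 0.1 read and 100% of those were whole within 0.2 read. Symbols came from RefSeq identifiers, for 12474 of 12627 genes. Depth was 5090666 to 11035293 reads per used library. Since the deposited unit was signal, the main test was limma 3.58.1 with an intensity trend on log2(TMM reads per 1000000 + 1), with a term for each of 9 conditions and blocks by replicate number, in R 4.3.3. TMM factors ran from 0.881 to 1.10. A gene was called at an adjusted p under 0.05 (Benjamini-Hochberg over 12627 genes) and a fold of at least 1.5. The library labelled siVPS4A#1 replicate 2 was left out for its depth of 669257 reads and its VPS4B level.

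Batch labels follow replicate numbers. Residuals of libraries with the same number correlated at a mean r of 0.170 across genes, against -0.0782 for different numbers, and at 0.268, 0.0705, 0.300 and 0.0157 within replicates 1 to 4 and 0.305 for the 1 pair of replicate 5, so the number was kept as a block. Alternatives were edgeR 4.0.16 and DESeq2 1.42.0 on recovered reads (3083 and 3938 genes called by edgeR, 3026 and 3895 by DESeq2, in siVPS4A+B#1 and siVPS4A+B#2 against siCTRL#1), no block, library totals, upper quartile or median-of-ratios scaling, a pseudocount of 0.1, a filter on a mean of 1 read per 1000000, the left-out library kept, only the compared conditions, and each replicate left out. The design allowed a test on counts as the main one had the table held counts.

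Members and lists were chosen with earlier results of these data known. Given library by library are the 10 members with the largest mean change over both pairs among those called the same way in both, the SREBP machinery, the efflux genes, and members called in all 4 comparisons of a target. From each other list, at most 4 genes called the same way in both pairs are named. Other members and marker genes are named for their counts. The code was tested on simulated data. Python 3.11.15, numpy 2.4.6, pandas 2.3.3 and matplotlib 3.10.9 were used.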

Additional observations from a re-analysis of the deposited data

Results flagged for a closer look

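In 9 of 207 groups, formed by 23 named members in 9 conditions, 1 library stood far from the others of its condition, and chance alone picks out about 1 in 20 groups. Among sterol enzymes, MVD read 127 in siCTRL#1 replicate 3 against 79.3 to 83.2 in the others. CYP51A1 read 233 in NT replicate 1 against 124 to 140.5, and 123 in siVPS4A#2 replicate 2 against 109 to 111. HSD17B7 read 10.7 in siVPS4B#2 replicate 1 against 19.5 to 20.3. Among regulators, SREBF2 read 234 in siVPS4B#1 replicate 4 against 285 to 292, and INSIG2 read 6.11 in NT replicate 4 against 4.70 to 4.85 and 7.04 in siVPS4A+B#2 replicate 2 against 5.08 to 5.41. Of the efflux genes, ABCG1 read 1.54 in siVPS4B#2 replicate 2 against 0.630 to 0.751, and MYLIP read 16.6 in siVPS4A+B#1 replicate 2 against 10.7 to 10.9. Values are reads per 1000000 after TMM scaling.

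The library labelled siVPS4A#1 replicate 2, which only the fits said to keep it used, held 18 of the 23 named members above every NT and siCTRL#1 library, as it did 24.3% of all genes. Levels here are scaled with this library included, so the controls differ slightly from those given elsewhere. In the mevalonate pathway it read 628 for HMGCS1 (highest control 99.0), 61.5 for MVK (35.1), 214 for MVD (127), 406 for IDI1 (152) and 144 for FDPS (92.8). From squalene to sterol it read 526 for FDFT1 (highest control 374), 68.0 for SQLE (25.8), 392 for CYP51A1 (233), 380.3 for MSMO1 (123), 55.0 for NSDHL (33.1), 19.4 for HSD17B7 (18.6) and 118 for EBP (115). Among regulators it read 380.3 for SREBF2 (310.2), 209 for SCAP (205) and 575 for INSIG1 (199). It also read 95.5 for the sterol carrier gene STARD4 (51.7), 8526 for SCD (5010.5) and 1353 for FASN (842). This library is shallow, and the 95% counting intervals of HSD17B7 (12 reads, 10.0 to 33.9), EBP (73 reads, 92.6 to 149) and SCAP (129 reads, 174 to 248) include the highest control, while those of the other 15 lie above it, as do those of 8.04% of all genes.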

How the results depend on the processing

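Of the log2 fold changes of the 23 named members in the 2 pairs against siCTRL#1 under alternatives, 659 kept direction and side of the threshold, 14 changed sign, 14 lost and 1 gained a call. Of the counts, 275 stayed within 1.5 times and 25 did not.

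With siVPS4A#1 replicate 2 kept, the members called were 0 for siVPS4B#2 against siCTRL#1, 3 for siCTRL#1 against NT, 0 in all 4 comparisons of VPS4B, 0 between the pairs, 3 between the VPS4A duplexes, 1 between the VPS4B duplexes, 2 for the interaction of siVPS4A+B#1 and 16 for that of siVPS4A+B#2. With only the compared conditions fitted, siVPS4B#2 had 0, all 4 of VPS4B 0 and the pairs 0. Between the pairs, library totals gave 3 and a pseudocount of 0.1 gave 2. Leaving out 1 replicate number at a time gave 0 to 1 for siVPS4B#2, 2 to 9 for siCTRL#1 against NT, 0 to 1 for all 4 of VPS4B, 1 to 3 between the pairs, 6 to 8 between the VPS4A duplexes and 6 to 12 for the interaction of siVPS4A+B#1, beside 15 to 21 for siVPS4A+B#1 and 18 to 24 for siVPS4A+B#2 against siCTRL#1.

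Sign changes were in log2 fold changes near 0 that passed no test. MYLIP in siVPS4A+B#1 (-0.0320) came to 0.0201 without a block, 0.0287 with the library kept, and -0.263 to 0.0980 leaving out 1 replicate. SREBF1 in siVPS4A+B#2 (0.0909) came to -0.0405 with library totals and -0.0149 to 0.224 leaving out 1 replicate. SREBF2 in siVPS4A+B#2 (-0.0111) came to 0.0401 with DESeq2, 0.0214 with edgeR, 0.00971 without a block, 0.00758 with median-of-ratios scaling and -0.194 to 0.138 leaving out 1 replicate. INSIG2 in siVPS4A+B#2 (0.127) came to -0.0520 to 0.256 leaving out 1 replicate. The cause was not tested. Depth limits ACSS2 (0 to 7 reads) and ABCG1 (0 to 15 reads) most.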

Other observations

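Among genes of the other lists that rose with both pairs, values under single silencing are given here for GRAMD1B and NPC1 only. GRAMD1B, a sterol transfer gene, read 6.40, 9.14, 6.60, 7.39 and 6.91 reads per 1000000 with siCTRL#1, 11.6, 12.3, 13.2 and 15.1 with siVPS4B#1, and 4.58, 3.76, 6.19 and 5.87 with siVPS4A#1. Its levels were 56.9, 41.8, 43.0 and 49.8 with siVPS4A+B#1, and 32.5, 35.0, 32.7 and 23.9 with siVPS4A+B#2. NPC1, which exports cholesterol from late endosomes, read 33.5, 45.3, 38.8, 29.0 and 42.3 with siCTRL#1, 91.7, 68.8, 113 and 71.7 with siVPS4A+B#1, and 125, 111, 185 and 83.9 with siVPS4A+B#2. Against siCTRL#1, limma gave log2 fold changes of -0.43, 0.14, 0.78 and 0.36 for GRAMD1B with siVPS4A#1, siVPS4A#2, siVPS4B#1 and siVPS4B#2 (adjusted p = 0.0682, 0.959, 0.00209 and 0.209). For NPC1 these were -0.25, 0.03, 0.40 and 0.32 (adjusted p = 0.212, 0.987, 0.064 and 0.176).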
